A study of Mus musculus with 21 samples.

Results

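The receptors for estrogens other than estrogen receptor alpha (ERα), and their closest orphan relatives, are encoded in the mouse by Esr2, Gper1, Esrra, Esrrb and Esrrg, which are 5 of 21631 protein-coding genes with a known span. ERα itself was mapped in mouse tissues by ChIP-seq (sequencing after chromatin immunoprecipitation), in which DNA bound by a protein is recovered with an antibody and sequenced, and regions with more reads than background are listed as peaks. A peak was assigned to a receptor gene when its summit, the position of its highest signal, lay inside the gene's mm10 span or within 25 kb of it. By this rule 41 of 72690 peaks in 5 peak lists were assigned.

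The ERα libraries came from CD-1 mice aged 10 weeks. They comprised 4 of vWAT with estradiol, 3 of scWAT with estradiol, 1 of BAT with estradiol, 2 of Liver with estradiol and 2 of vWAT with vehicle. The libraries of a group shared a single deposited list, so values have no spread between animals and no difference between lists was tested. The numbers of peaks on the autosomes and X were 20715 (vWAT estradiol), 17971 (scWAT), 5193 (BAT), 21411 (Liver) and 7400 (vWAT vehicle). The depth behind each list is unknown, and the dose, the route, the duration of treatment and the sex of the mice are not stated in the labels. The tissue labels could be checked only through peaks near marker genes. Adipocyte genes had a peak within 25 kb for 6 of 6 in the vWAT estradiol list, 5 in scWAT, 1 in BAT, 4 in Liver and 3 in vWAT vehicle, and hepatocyte genes for 1, 1, 0, 3 and 0 of 6 in the same order. Brown adipocyte genes had one for 3, 2, 2, 3 and 2 of 6, mammary epithelial genes for 2, 1, 0, 2 and 1, and mesothelial genes for 6, 3, 1, 2 and 2. Of all protein-coding genes 61.5%, 61.0%, 29.7%, 67.5% and 44.8% had one in these lists, and several of the marker counts, such as those of adipocyte genes in Liver and brown adipocyte genes in BAT, were near that level. A peak is not an expression level, so these counts do not give the cell content of a tissue.

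Esr2 encodes estrogen receptor beta, a nuclear receptor that binds estradiol and recognises the same DNA element as ERα, a palindrome with AGGTCA-like arms. Gper1 encodes a G protein-coupled receptor of cell membranes that has been described as a receptor for estradiol and signals through G proteins, the EGF receptor and MAP kinases. Esrra, Esrrb and Esrrg encode the estrogen-related receptors (ERRs), orphan nuclear receptors that resemble ERα in sequence but do not bind estradiol. ERRs bind extended half-sites and, with coactivators of the PGC-1 family, drive genes of mitochondrial respiration and fatty acid oxidation. ERRα is broadly expressed in tissues with high energy demand, including brown fat, ERRβ is best known from placenta and stem cells, and ERRγ from heart, muscle, brain and, in mouse liver, glucose production.

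Of the annotated promoters that peaks reached, 3 are shown because the strongest site and the peaks at the receptor genes' own starts lie there, with the stretch that the peaks mark in capitals. Sequences are from RefSeq on GRCm38.p6, the assembly of mm10, and run 5′ to 3′ on the strand of the gene from 250 bases before a start to 50 after it. The Esrra promoter, chr19:6921759-6922058 on the minus strand, has in capitals the 126 bases that lay under both the scWAT and the BAT peak. The Gpr137 promoter, chr19:6941458-6941757 on the minus strand, lies at the strongest site near Esrra, and its capitals run over the 58 bases from the lowest to the highest of the 5 summits. The promoter at the last of the Esrrg starts, chr1:187997577-187997876 on the plus strand, has in capitals the 251 bases under a Liver peak.
Esrra: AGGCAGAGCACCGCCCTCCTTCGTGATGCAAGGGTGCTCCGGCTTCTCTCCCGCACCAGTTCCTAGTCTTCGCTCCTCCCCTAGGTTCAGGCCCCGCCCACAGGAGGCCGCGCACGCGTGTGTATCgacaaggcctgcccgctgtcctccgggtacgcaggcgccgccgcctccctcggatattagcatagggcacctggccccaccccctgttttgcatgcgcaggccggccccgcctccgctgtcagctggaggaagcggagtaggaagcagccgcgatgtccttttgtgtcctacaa
Gpr137: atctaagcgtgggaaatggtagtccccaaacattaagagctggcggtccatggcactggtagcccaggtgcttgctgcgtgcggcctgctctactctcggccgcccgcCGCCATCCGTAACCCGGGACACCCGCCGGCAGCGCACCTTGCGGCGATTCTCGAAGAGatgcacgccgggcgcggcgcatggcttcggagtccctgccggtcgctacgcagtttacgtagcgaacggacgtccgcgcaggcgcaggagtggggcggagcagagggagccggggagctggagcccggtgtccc
Esrrg: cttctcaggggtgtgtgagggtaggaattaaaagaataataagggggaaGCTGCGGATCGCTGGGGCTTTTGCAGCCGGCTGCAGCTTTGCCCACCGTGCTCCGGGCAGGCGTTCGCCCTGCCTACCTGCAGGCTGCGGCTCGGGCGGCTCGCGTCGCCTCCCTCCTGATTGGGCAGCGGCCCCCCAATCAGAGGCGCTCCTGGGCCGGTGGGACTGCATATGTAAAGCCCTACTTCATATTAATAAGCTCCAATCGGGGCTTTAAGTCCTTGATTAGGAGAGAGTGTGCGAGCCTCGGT
On both strands, none of the 9 promoters of the receptor genes held the half-site AGGTCA, which 16.3% of 32851 mouse promoters of this length held. None held the full palindrome, GGTCA and TGACC with any 3 bases between them, found in 0.07% of promoters, or the ERR-type TCAAGGTCA, which contains AGGTCA and was found in 0.423%. The Gpr137 promoter shown held none of them either. These letters were searched in the promoter windows alone, and peaks away from promoters were not searched.

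The 41 peaks were spread unevenly over the genes, with 18 at Esrrg, 15 at Esrra, 5 at Esrrb, 2 at Esr2 and 1 at Gper1. A peak was present at 3 of the 5 genes in the vWAT estradiol list, where 61.5% of all protein-coding genes had one, and at 4 of 5 in scWAT, where 61.0% had one. In BAT 4 of 5 had a peak, against 29.7% of all genes, and in Liver 3 of 5, against 67.5%. In vWAT with vehicle 2 of 5 had one, against 44.8%. Esrra alone had a peak in all 5 lists, which 21.1% of genes did, and none of its summits lay inside its span, so that with summits inside the span alone it had 0 peaks in each list. The BAT count lay farthest from its background, and that list rests on 1 library.

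Long genes offer more room for peaks. Esrrg spans 606 kb and Gper1 4.65 kb, and the windows searched ran from 54.7 kb at Gper1 to 656 kb at Esrrg. Per 100 kb of window, the 5 genes together held 0.734 peaks in the vWAT estradiol list, against 1.39 over all gene windows. The densities were 0.734 against 1.34 in scWAT, 0.551 against 0.379 in BAT, 1.38 against 1.44 in Liver and 0.367 against 0.689 in vWAT with vehicle. The receptor loci, counted as one set, were thus not denser in ERα peaks than gene windows at large in 4 of the 5 lists. Single genes differed. Esrra was above gene windows at large in every list, with 3.27 peaks per 100 kb in vWAT with estradiol and 6.55 in scWAT. It held 3.27 in BAT, 6.55 in Liver and 4.91 in vWAT with vehicle. In both vWAT lists and scWAT no other receptor gene was above that background. Gper1 (1.83) and Esrrb (0.475) were above it in BAT, and Esrrg (1.52) in Liver.

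**Figure D1:**
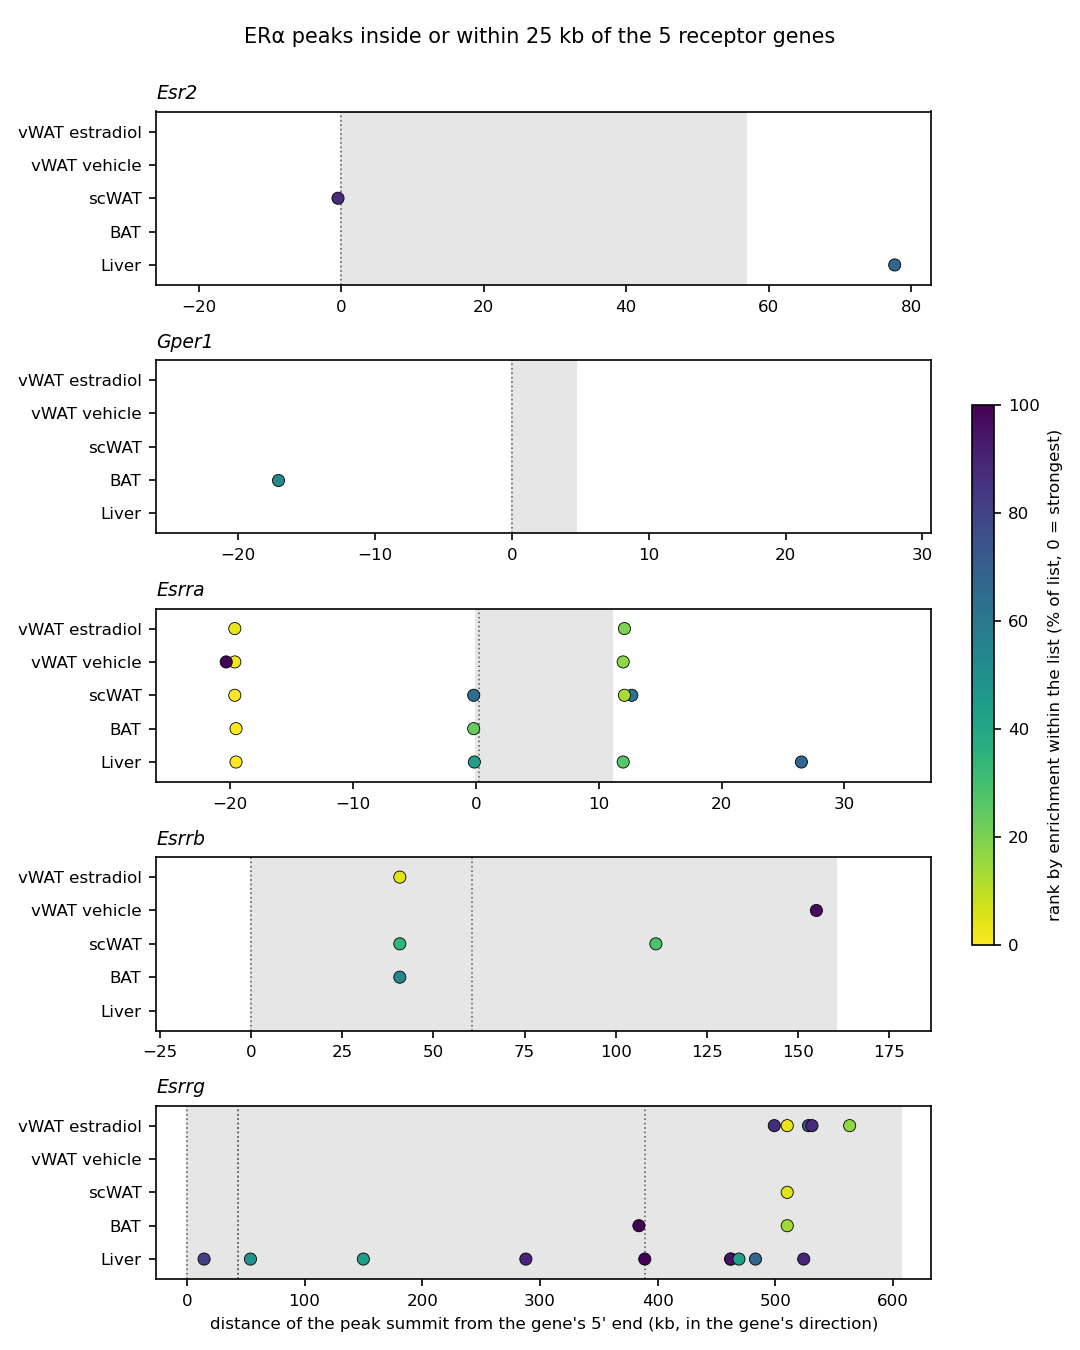
ERα peaks at the 5 receptor genes in each list, placed by the distance of the summit from the gene's 5′ end in kb along the gene's direction, with the gene span in grey and RefSeq starts as dotted lines. Colour gives the rank by enrichment within the list, with yellow for the strongest. Yellow points stand upstream of Esrra in all 5 lists, inside Esrrb in vWAT with estradiol, and inside Esrrg in vWAT with estradiol and in scWAT. Esr2 and Gper1 have 2 points and 1.

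The 2 estrogen receptor genes, Esr2 and Gper1, had 2 peaks and 1, which ranked at 53.0% to 87.3% of their lists. Esr2 had a peak in 2 lists, as did 12.2% of all protein-coding genes, and Gper1 in 1, as did 12.6%. Per 100 kb of window Esr2 held 0.936 peaks in scWAT and in Liver, against 1.34 and 1.44 over all gene windows. Gper1 held 1.83 in BAT, against 0.379. Esr2, at chr12:76120419-76177259 on the minus strand, had no peak in the vWAT estradiol, BAT or vWAT vehicle list. Its scWAT peak, chr12:76177588-76177862, lay 466 bases upstream of the Esr2 start. The authors' enrichment for it was 2.75, a value at 87.3% of the way down the scWAT list, and its −log10 q-value was 1.58. The edge of this peak was 78 bases beyond the promoter window, so no base of the RefSeq promoter lay under it. The Liver peak stood 20.8 kb past the 3′ end of Esr2, inside the span of Syne2, with an enrichment of 3.33 at 67.2% of the Liver list and a −log10 q-value of 1.29. Neither peak overlapped a peak of another list.

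Gper1, at chr5:139423150-139427800 on the plus strand, lies inside the span of the longer gene 3110082I17Rik. Its single peak was in BAT, at chr5:139406004-139406302, with an enrichment of 4.23 at 53.0% of the BAT list and a −log10 q-value of 1.56. The summit was 17.1 kb from the 5′ end of Gper1 and 0.921 kb from an end of C130050O18Rik, inside the span of that gene. No list had a summit inside the Gper1 span. All 3 peaks of Esr2 and Gper1 were under 2 in −log10 q-value, as were 17 of the 38 peaks of the ERR genes. Of whole lists, 88.0% of scWAT, 33.5% of BAT and 46.4% of Liver peaks reached 2. In vWAT 89.9% did with estradiol and 70.9% with vehicle.

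Esrra, at chr19:6910977-6922048 on the minus strand, was the gene with the strongest peaks and the most crowded neighbourhood. 6 other protein-coding genes reach into its 61.1 kb window, and 14 of its 15 peaks lay within 1 kb of an end of some gene. The peaks formed 5 sites, of which 1 was in all 5 lists, 1 in 4, 1 in 3 and 2 in a single list.

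The site shared by all lists lay 19.5 to 19.6 kb upstream of Esrra, at the neighbouring 5′ ends of Gpr137, which encodes a membrane protein of lysosomes, and Bad, which encodes a regulator of cell death. Its enrichment was 14.1 in vWAT with estradiol, 19.9 in scWAT, 18.0 in BAT, 23.2 in Liver and 16.7 in vWAT with vehicle. By enrichment this was peak 7 of 17971 in scWAT, 9 of 5193 in BAT and 5 of 21411 in Liver, and by deposited p-value it was first in scWAT. In vWAT it was peak 651 of 20715 with estradiol and 162 of 7400 with vehicle. The 5 summits fell within 57 bases of each other, in the capitals of the Gpr137 promoter above. Other genes are nearer to it than Esrra, and the lists do not tell which gene a peak acts on. In vWAT with vehicle a second, weak peak followed at chr19:6942228-6942523, with an enrichment of 2.87 at 99.6% of the list. It overlapped the wider vWAT estradiol peak of the site.

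A second Esrra site stood about 1 kb past the 3′ end of the gene, at the ends of Prdx5, which encodes a peroxidase, and Trmt112, which encodes a cofactor of methyltransferases. It was listed in all groups other than BAT. Its enrichment was 7.55 in vWAT with estradiol (19.6% of the list), 6.19 in scWAT (13.2%), 4.75 in Liver (26.3%) and 8.73 in vWAT with vehicle (16.8%). The summits lay within 124 bases. scWAT had a further peak beside it with an enrichment of 3.21, at 61.2% of its list.

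The 5′ end of Esrra itself had a peak in scWAT, BAT and Liver and in neither vWAT list. An end of the neighbouring gene Catsperz also lay within 1 kb of each of these summits. The enrichment was 3.11 in scWAT, 5.10 in BAT and 4.08 in Liver, at 64.8%, 23.4% and 44.2% of those lists. The −log10 q-values were 4.27 in scWAT, 2.75 in BAT and 1.93 in Liver. The summits were 401, 404 and 348 bases upstream of the RefSeq start, beyond the 250 bases shown, and the scWAT and BAT peaks covered the capitals of the Esrra promoter above. The Liver peak, chr19:6922105-6922611, lay upstream of that promoter window and overlapped none of it. The fifth site was a Liver peak 15.5 kb past the 3′ end, with an enrichment of 3.33.

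**Figure D2:**
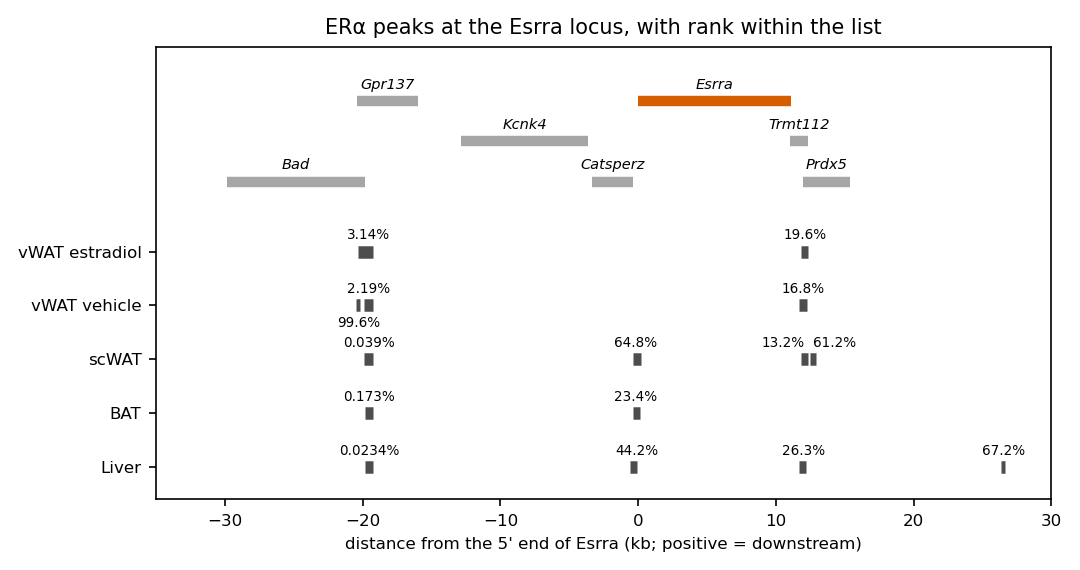
ERα peaks at the Esrra locus drawn to scale as dark boxes in each list, against distance from the 5′ end of Esrra in kb, with gene spans above. The label at each box is its rank by enrichment in percent of the list. The strongest box at the 5′ ends of Gpr137 and Bad, whose spans overlap, is at or under 3.14% in all 5 lists. Boxes at the 5′ end of Esrra are in scWAT, BAT and Liver.

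The other 2 ERR genes had their strongest peaks far from promoters, inside long gene spans that no other protein-coding gene of the table reaches. Esrrb, at chr12:86361117-86521628 on the plus strand, held 5 peaks at 3 sites. The main site, chr12:86401627-86402133 in vWAT with estradiol, lay 40.8 kb downstream of the first start and 19.8 kb upstream of the second. Its enrichment was 12.7 in vWAT with estradiol, 3.95 in scWAT and 4.23 in BAT, at 4.59%, 34.8% and 53.0% of those lists. The −log10 q-values were 28.5 in vWAT with estradiol, 5.52 in scWAT and 1.56 in BAT, and the 3 summits lay within 28 bases. Liver and vWAT with vehicle had no peak there.

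The remaining Esrrb peaks were each in a single list. The scWAT peak at chr12:86471521-86471866 had an enrichment of 4.29, at 28.8% of the list, and was the strongest scWAT peak of the gene. The vehicle peak at chr12:86516346-86516641 had an enrichment of 3.28, at 96.9% of the vWAT vehicle list, and a −log10 q-value of 0.71. Liver had no peak at Esrrb at all.

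Esrrg, at chr1:187608510-188214885 on the plus strand, showed a like pattern at 1 of its 16 sites. The peak chr1:188117846-188118502 lay 510 kb into the gene, 120 kb downstream of the last start. Its enrichment was 14.1 in vWAT with estradiol, 9.37 in scWAT and 5.76 in BAT, at 3.19%, 4.84% and 14.2% of those lists. The −log10 q-values were 55.64, 38.57 and 3.84 in the same order, and the 3 summits lay within 12 bases. Neither Liver nor vWAT with vehicle had a peak at this position, and the vehicle list had none in the whole Esrrg window.

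vWAT with estradiol had 4 further Esrrg peaks that no other list held. The one 563 kb into the gene had an enrichment of 8.15, at 16.5% of the list, and a −log10 q-value of 10.68. The enrichments of the other 3 were 4.07, 3.67 and 3.66, at 75.4% to 88.2% of the list. BAT had a weak peak of its own near the last start, with an enrichment of 2.65 at 99.7% of its list.

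Liver had the most peaks at Esrrg, 10, and none of them overlapped a peak of another list. As many Liver peaks in a window were found at 0.116% of protein-coding genes, or 25 genes, and the Esrrg window is the longest of the 5. Enrichments ran from 2.42 to 4.14, at 42.9% to 99.3% of the list. In 1 of the 10 the −log10 q-value reached 2, against 46.4% of all Liver peaks. 9 of the 10 were no wider than 300 bp, as were 56.6% of all Liver peaks, and 2 had the enrichment 3.33 that 4183 Liver peaks share. Per 100 kb the gene held 1.52 Liver peaks, against 1.44 over all gene windows. The weakest of the 10 covered the Esrrg promoter shown above, with its summit 87 bases upstream of the start and a −log10 q-value of 0.39.

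The treatment contrast in vWAT asks which peaks were listed with estradiol and not with vehicle. Of the 8 vWAT estradiol peaks near the receptor genes, 6 had no overlapping vehicle peak, a share of 75.0% (95% Wilson interval 40.9 to 92.9%, counting error over peaks only), against 77.3% of the whole list. The interval is not a test, since 5 of the 8 peaks lie in a single gene, Esrrg. All 6 estradiol-only peaks were at Esrrb and Esrrg, and both Esrra sites of vWAT were listed with and without estradiol. An estradiol-only peak was thus found at 2 of the 5 genes, against 46.3% of all genes. Of the 4 vehicle peaks, 1 had no estradiol counterpart, against 36.2% of the vehicle list. The estradiol-only share of the receptor loci was close to that of the list, and the vehicle list is the shorter one.

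The Esrrb and Esrrg main sites ranked in the strongest 5% of the vWAT estradiol list, where 28.7% of peaks had no vehicle counterpart. With each list held to its 5193 peaks of lowest p-value, both main sites and a second Esrrg peak stayed in the estradiol list without a vehicle peak, 3 of 5 receptor-locus peaks, against 56.3% of the list. A peak that is missing from a list was below the authors' threshold there, which is not a measure of absent binding.

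The tissue contrast compares the 4 lists with estradiol. Of the 8 vWAT peaks, 4 overlapped a scWAT peak (interval 21.5 to 78.5%), against 48.4% of the vWAT list. 3 overlapped a BAT peak (interval 13.7 to 69.4%), against 11.1%, and 2 overlapped a Liver peak (interval 7.15 to 59.1%), against 22.8%. These intervals hold counting error over peaks only. They are not a test, since 5 of the 8 peaks lie in a single gene, Esrrg. The main sites of Esrrb and Esrrg shared one pattern, listed in vWAT, scWAT and BAT with estradiol and in neither Liver nor vWAT with vehicle. The pattern of Esrrb did not hold under 2 other settings. At equal list size it had 0 peaks in scWAT, and with a minimum −log10 q-value of 2 it had 0 in BAT. With the lists as deposited, the pattern held for 301 of 20715 vWAT estradiol peaks (1.45%) and for 61 of the 1035 in the strongest 5% (5.89%). With 2 such peaks among 8, and the genes chosen as a family, no test of this count was made.

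Joined across lists by overlap, the 41 peaks formed 27 sites, and 22 of these were in a single list, 12 of them in Liver. Peaks in no other list numbered 4 of 8 in vWAT with estradiol, against 43.2% of that list, and 3 of 8 in scWAT, against 35.9%. They numbered 2 of 6 in BAT, against 48.0%, 12 of 15 in Liver, against 71.4%, and 1 of 4 in vWAT with vehicle, against 23.9%. Of the 22 peaks found once, 5 reached 2 in −log10 q-value. Of all Liver peaks 46.4% did so, and 89.9% in vWAT with estradiol, 88.0% in scWAT, 33.5% in BAT and 70.9% in vWAT with vehicle. These whole-list shares include peaks found in several lists, so they are not a like comparison for peaks found once. The sites found in 3 or more lists were the Gpr137 and Bad site, the Prdx5 and Trmt112 site and the 5′ end of Esrra, and the main sites of Esrrb and Esrrg.

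Positions differed between the ERR genes as well. A summit within 1 kb of a gene end was found for 2 of 8 receptor-locus peaks in vWAT with estradiol, against 24.0% of the list, and for 5 of 8 in scWAT, against 29.7%. In BAT it was 3 of 6 against 34.4%, in Liver 3 of 15 against 25.2%, and in vWAT with vehicle 3 of 4 against 52.0%. 14 of these 16 peaks were those of Esrra. The median enrichment of the receptor-locus peaks was 7.85 in vWAT with estradiol, against 4.84 over the list, 4.12 against 3.43 in scWAT and 4.67 against 4.32 in BAT. It was 3.33 against 3.91 in Liver and 6.0 against 4.77 in vWAT with vehicle. The strongest 10% of a list held 8 of the 41 peaks, and 5 of the 8 were the Gpr137 and Bad site.

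**Figure D3:**
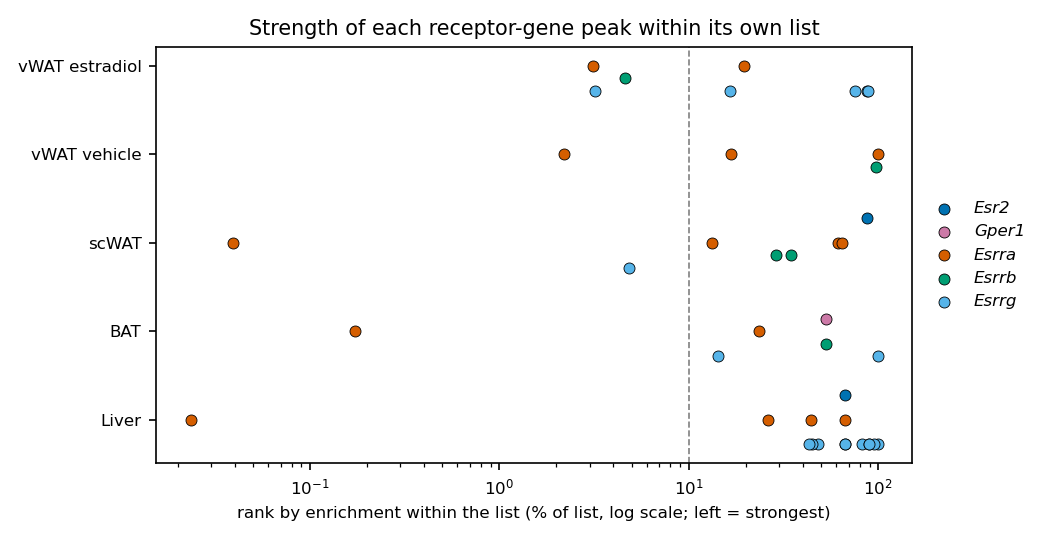
Rank of each receptor-locus peak by enrichment within its own list, in percent of the list on a log scale, with the strongest at the left and the gene by colour. The dashed line marks the strongest 10%. Esrra points lead every list, followed by Esrrg and Esrrb in vWAT with estradiol and Esrrg in scWAT, and the Esr2 and Gper1 points are right of 50%.

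The 25 kb limit fell in a gap between sites. The outermost peaks inside it were the Esrra sites at 19.6 and 20.3 kb and the Liver peak of Esr2 at 20.8 kb. The nearest outside stood 28.9 to 29.6 kb upstream of Esrra, at the far end of Bad, in all 5 lists. Enrichments were 3.46 in vWAT with estradiol (94.0% of the list), 3.37 in scWAT (53.9%) and 3.69 in BAT (77.2%). They were up to 4.38 in Liver (34.5%) and up to 3.87 in vWAT with vehicle (81.4%).

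For comparison, Esr1, which encodes the precipitated ERα, had 15 peaks in vWAT with estradiol, 10 in scWAT, 1 in BAT, 6 in Liver and 2 in vWAT with vehicle. Its best enrichment within 25 kb was 11.1 in vWAT with estradiol, at 7.32% of the list. That was below the best peaks of Esrra, Esrrb and Esrrg there. Beyond the limit, a vWAT estradiol peak 52.6 kb upstream of Esr1 had 14.8, at 2.46% of the list. In scWAT the best Esr1 peak within 25 kb, 9.02, was above that of Esrrb and below those of Esrra and Esrrg.

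Genes whose best ranks over the 5 lists were most like those of each receptor gene were sought among genes more than 100 kb away, by Euclidean distance with 100% where a list had no peak. Nearest to Esrra was Sirt6, which encodes a protein deacylase of chromatin, at a distance of 1.85, together with Ankrd24 and Gm10778 of the same locus. Nearest to Esrrg were Akr1cl (5.91), Trib1 (9.67), which encodes a pseudokinase, and Plekhg3 (12.3), and nearest to Esrrb were Gmfg-ps (12.7), Fam151a and Acot11 (both 15.1). Vangl2 and Ipmk, with the same best ranks in scWAT and Liver and no peak elsewhere, were at distance 0 from Esr2, and Klhl4, with the same best rank in BAT alone, was at distance 0 from Gper1. These distances of 0 follow from ties, since peaks of equal enrichment share a rank. The values of Esr2 were shared by 397 scWAT and 4183 Liver peaks, and that of Gper1 by 206 BAT peaks. The distance is a description over 5 lists.

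Genes that work with these receptors were listed by role, and the number with a peak within 25 kb was counted. The lists hold long genes, such as Plcb1 (689 kb), Ppargc1a (662 kb) and Esr1 (394 kb). Their counts and the shares of all genes were not adjusted for length. Of 10 ERR coregulators, 9 had a peak in vWAT with estradiol, 9 in scWAT, 8 in BAT, 10 in Liver and 7 in vWAT with vehicle, against 61.5%, 61.0%, 29.7%, 67.5% and 44.8% of all genes in the same order. An estradiol-only vWAT peak was found at 7, against 46.3% of all genes. The strongest vWAT estradiol peaks of this list were at Pprc1, a relative of PGC-1, with an enrichment of 17.5 against 15.3 as its best vehicle value. Nrip1, a corepressor of ERRs and ERα that restrains energy use in fat, had 14.6 with estradiol and 6.13 with vehicle. Ppargc1b, the coactivator PGC-1β, had 11 with estradiol and no vehicle peak, and all 6 of its peaks were estradiol-only. Ppargc1a, the coactivator PGC-1α, was chosen after its values were seen. It had 2 peaks in vWAT with estradiol with enrichments up to 4.08, 2 in BAT up to 5.26, 4 in Liver up to 5.63 and none in scWAT or vWAT with vehicle.

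Of 18 ERR target genes of oxidative metabolism, 17 had a peak in vWAT with estradiol, 17 in scWAT, 7 in BAT, 14 in Liver and 12 in vWAT with vehicle, where the shares of all genes were 61.5%, 61.0%, 29.7%, 67.5% and 44.8%. An estradiol-only peak was found at 9 of 18, near the 46.3% of all genes. The leading members were Atp5b, a subunit of ATP synthase, with 17.5 with estradiol and 20.1 with vehicle, and Ndufs7, a subunit of complex I, with 17.4 and 19.1. Sdhb, of complex II, had 9.64 with estradiol and at another position 4.07 with vehicle. Cs, citrate synthase, had 9.37 with estradiol and 5.73 with vehicle. The median number of peaks per gene was 2 in vWAT with estradiol and in scWAT, against 1 over all genes, and 1 in vWAT with vehicle, against 0. It was the same as over all genes in BAT, at 0, and in Liver, at 1.

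Of 12 genes of GPER signalling, 11 had a peak in vWAT with estradiol, 10 in scWAT, 5 in BAT, 10 in Liver and 11 in vWAT with vehicle, beside 61.5%, 61.0%, 29.7%, 67.5% and 44.8% of all genes. An estradiol-only peak was found at 11, beside 46.3% of all genes, without adjustment for length. Mapk3, a MAP kinase, had a best enrichment of 11.2 with estradiol and 6.77 with vehicle. Egfr, the EGF receptor, had 9.11 with estradiol, with 6 estradiol-only peaks, and at another position 3.77 with vehicle. Gnai2, an inhibitory G protein subunit, had 8.22 in an estradiol-only peak and at another position 4.69 with vehicle.

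Of 10 genes of estrogen synthesis and inactivation, 7 had a peak in vWAT with estradiol, 5 in scWAT, 2 in BAT, 7 in Liver and 5 in vWAT with vehicle, and 5 had an estradiol-only peak. The counts were near or below the shares of all genes, which were 61.5%, 61.0%, 29.7%, 67.5% and 44.8% in the lists and 46.3% for an estradiol-only peak. Hsd17b12, best known for fatty acid elongation, had 14.8 with estradiol and 15.3 with vehicle, Hsd17b4, which oxidises estradiol, 7.28 and 6.51, and Hsd17b7, which forms estradiol from estrone, 5.28 and 5.38. Cyp1a1, an enzyme that hydroxylates estradiol, had 8.06 with estradiol and no vehicle peak. Cyp19a1, which encodes aromatase and was also chosen after its values were seen, had no peak in any list.

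The last list held ERα and the related steroid receptors. All 5 of its genes had a peak in vWAT with estradiol and with vehicle, 4 in scWAT, 3 in BAT and 4 in Liver, and 4 had an estradiol-only peak, where 46.3% of all genes did. The shares of all genes were 61.5% and 44.8% in vWAT with estradiol and with vehicle, 61.0% in scWAT, 29.7% in BAT and 67.5% in Liver. Pgr, the progesterone receptor, had a best enrichment of 15.3 with estradiol and at another position 6.59 with vehicle. Nr3c1, the glucocorticoid receptor, had 10.8 with estradiol and 6.59 with vehicle. For all genes named by role, enrichments of the treatments come from separate lists. They can lie at different positions of a gene and were not compared further. The median number of peaks per gene was 4 in vWAT with estradiol, against 1 at Esr2, Gper1, Esrra, Esrrb and Esrrg and 1 over all genes. Esr1 spans 394 kb and Nr3c2 347 kb, and these medians were not adjusted for length.

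**Figure D4:**
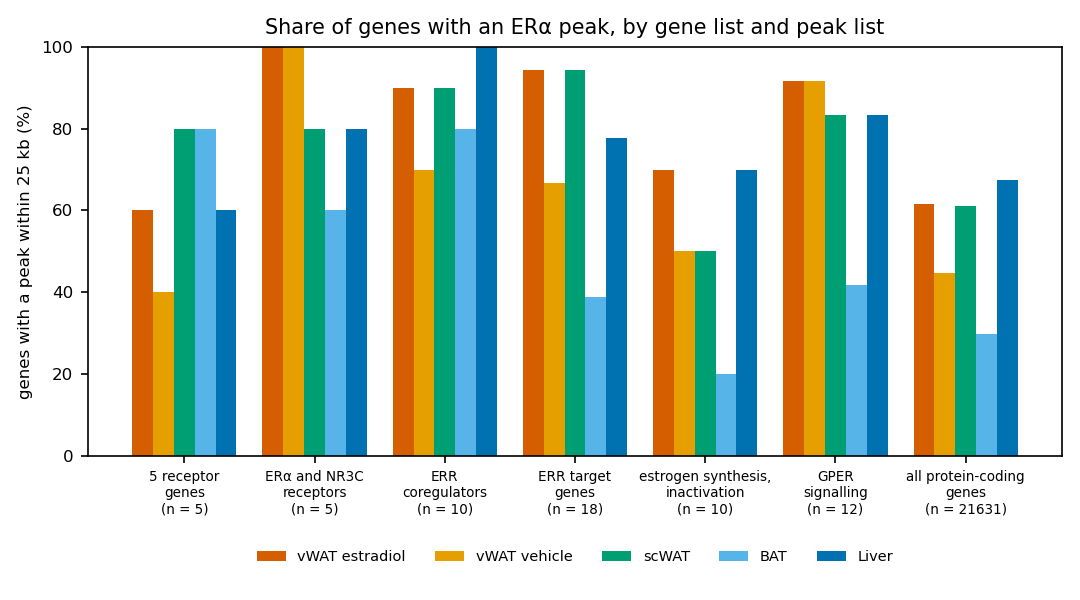
Share of the genes of each list with an ERα peak inside the span or within 25 kb, in percent, for each of the 5 peak lists by colour, with all protein-coding genes at the right. The 5 receptor genes stand at 60.0% in vWAT with estradiol and 40.0% with vehicle, beside 61.5% and 44.8% of all genes.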

How the data were processed

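ERα ChIP-seq of CD-1 mouse tissues was deposited as 5 narrowPeak lists, 1 for each group. Per the labels' protocols, ERα-bound chromatin was recovered from sonicated nuclei of frozen tissue with antibody sc543. The submitters' processing notes name the build mm10 and the tools BWA 0.7.12 and HOMER, with no role. The caller of the peaks, its control and any pooling are not given in the sources at hand. The deposited columns used were the enrichment ratio, the −log10 p-value, the −log10 q-value and the summit of every peak. Enrichment was ranked within a list alone, with tied peaks at their mean rank.

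Analysis was limited to autosomes and X. The lists as deposited held 20723, 17987, 5197, 21417 and 7409 peaks for vWAT estradiol, scWAT, BAT, Liver and vWAT vehicle. Gene spans and promoters are from RefSeq on GRCm38.p6, the assembly of mm10, and all 84 genes of the gene lists were matched. An overlap of 1 bp or more made peaks of 2 lists shared. Peak sequences away from promoters, exons, proteins, H3K27ac and RNA were not analysed here. Assignment and overlap were tested on simulated data. From each gene list up to 4 genes were named by strongest vWAT estradiol peak, with the 3 genes nearest in rank pattern to each receptor gene. Some genes that this rule names are not reported here. The receptor genes and the lists were chosen with earlier results of these data known. Alternatives were the distance limit, equal list size, a minimum −log10 q-value of 2, the overlap rule, the ranking value and the distance to a gene end. Scripts ran in Python 3.11.15 (pandas 2.3.3, numpy 2.4.6, matplotlib 3.10.9, scipy 1.17.1).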

Additional observations from a re-analysis of the deposited data

How the results depend on the processing

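Counts near the receptor genes moved with the distance limit and the list length. With summits inside the span alone, the receptor genes with a peak numbered 2 in scWAT, 2 in BAT, 1 in Liver and 1 in vWAT vehicle, and the peaks 3 in scWAT, 3 in BAT and 1 in vWAT vehicle. Within 10 kb the vehicle list had 2 peaks, and 1 vWAT estradiol peak was shared with Liver. Within 50 kb the peaks were 14 in vWAT estradiol, 13 in scWAT and 8 in vWAT vehicle, with 10 estradiol-only peaks and 8, 5 and 4 vWAT estradiol peaks shared with scWAT, BAT and Liver. At equal list size the peaks were 5 in vWAT estradiol, 3 in scWAT, 1 in Liver and 2 in vWAT vehicle. The genes with a peak were then 2 in scWAT, 1 in Liver and 1 in vWAT vehicle, and peaks at gene ends 2 in scWAT and 1 in Liver. At that size 3 peaks were estradiol-only, 0 vehicle-only and 1 shared with Liver. With a minimum −log10 q-value of 2, peaks numbered 3 in BAT, 3 in Liver and 2 in vWAT vehicle, genes with a peak 2 in BAT and 1 in vWAT vehicle, and vehicle-only peaks 0. With summits within 100 bp as the rule for sharing, 3 vehicle peaks were vehicle-only and 1 vWAT estradiol peak was shared with Liver. With overlap of at least 50% of each peak, 2 were vehicle-only. Each alternative holds fewer or more peaks, or a stricter match, by its construction. Ranking by p-value and gene ends within 5 kb kept all counts within 1.5 times the main values. No paired analysis was possible because each group has a single list and no result comes from a test, and for the same reason no replicate could be left out. The unknown depth limits what absence from a list can show.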

Other observations

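Further peaks stood beyond the 25 kb limit at Gper1, Esrrb and Esr2. At Gper1, a vWAT estradiol peak 41.1 kb from the gene, and 1.36 kb downstream of a start of Gpr146, had an enrichment of 11.2, at 7.08% of the list. It overlapped a scWAT peak at the same distance with an enrichment of 6.64, at 11.5%, and no vehicle peak of vWAT. Another site 32.8 to 32.9 kb away, at an end of 3110082I17Rik, was in all 5 lists, with enrichments of 10.0 in vWAT with estradiol, 5.49 in scWAT, 4.51 in BAT, 5.77 in Liver and 10.4 in vWAT with vehicle.

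At Esrrb, a site 61.8 to 61.9 kb past the 3′ end had an enrichment of 9.67 in vWAT with estradiol, at 11% of the list, and 6.86 in scWAT, at 10.6%, and no peak in BAT, Liver or vWAT with vehicle. It was weaker than the main site inside Esrrb in vWAT with estradiol, 12.7, and stronger than the peaks inside it in scWAT, at most 4.29. At Esr2 the nearest vWAT peaks were 77.9 kb upstream, within 1 kb of an end of another gene, Mthfd1. Their enrichment was 8.46 with estradiol, at 15.3% of the list, and 4.52 with vehicle, at 55.8%. Both overlapped a scWAT peak at the same distance with an enrichment of 5.17, at 19.4%. These distances were looked at after the values within 25 kb were known.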
